A study of Mus musculus with 12 samples.

Results

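The endoplasmic reticulum (ER) folds, checks and exports secreted and membrane proteins, and returns those that fail to fold to the cytosol for destruction. The genes described here are 33 listed genes of this system: 19 of folding, 7 of ER degradation, 3 of the sensors and transcription factors of the unfolded protein response, and 4 of translocation into the ER. They were read from the table by symbol, and all 33 were found among 26271 loci of the authors' deposited table. Of these, 32 were tested by the authors in every comparison. Derl3, a derlin gene best known from secretory cells, was not tested, with 0.0719 FPKM in high glucose, 0.0581 in low glucose, and 0.0353 with galactose.

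The cells were C2C12, an established line of mouse myoblasts, grown for 24 h with 25 mM glucose (high glucose), with 5 mM glucose (low glucose) or with 10 mM galactose and no glucose named. Every group also had 1 mM pyruvate, 10% serum and 1% antibiotic. Each of the 3 groups had 4 polyA libraries, and the labels do not say whether these came from separate cultures. The design text of the series describes single muscle stem cells instead, and the sample labels were followed.

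The authors deposited 1 pooled value per group and gene, in FPKM (fragments per kilobase of transcript, scaled to library size). These pooled values carry no SD and no n, and their depth is unknown. Folds below are ratios of these values, and a gene was called higher or lower where the authors' q-value, from their Cuffdiff test, was below 0.05. The p-values measure only the libraries at hand, whose differences may be technical. At least 1 FPKM was listed for 12827 to 13025 loci per group. The myoblast markers Des, Myod1 and Cdh15 stood at 456, 154 and 104 FPKM in high glucose. The 6 myoblast markers summed to 792 FPKM in high glucose, 537 in low glucose and 465 with galactose, and 4 of them were called lower in low glucose and 5 in galactose, where Ncam1 was called higher. The part of these markers in the changes below was not tested. Of 10 markers of blood, endothelial, epithelial, liver and fat cells, the 8 with a locus of their own reached at most 0.21 FPKM, and Alb was listed at 0 in every group. The blood marker Cd68 shares a locus with the abundant gene Eif4a1, at 72.7, 96.0 and 98.6 FPKM in high glucose, low glucose and galactose, and cannot be read alone. Hba-a1 shares one with Hba-a2, also a blood gene, at 0.408, 0.202 and 0.0882 FPKM. In bulk RNA, fewer cells of a kind and less RNA per cell cannot be told apart.

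In outline, most of the 19 listed folding genes were lower in galactose than in high glucose, and the listed degradation genes went both ways. The list was chosen with earlier results of these data known. From high glucose to galactose, 12 of 19 folding genes fell and 2 rose, while 3 of 6 tested degradation genes rose and 2 fell. Of all loci tested in that comparison, 24.8% were called lower and 26.5% higher. Folding genes outside the list did not share the fall: of 34 tested, 8 were called lower and 7 higher. From high to low glucose, 9 of 19 folding genes fell and 1 rose, where 18.2% of all tested loci were called lower and 18.3% higher. From high glucose to galactose, the largest changes were rises of Ero1l, an oxidase that renews disulphide enzymes, by 4.34-fold, and of Herpud1, a scaffold of the degradation complex, by 2.54-fold, and a fall of the chaperone cofactor gene Sdf2l1 by 2.31-fold. These were the 3 called members with a change of at least 2-fold between those media. Among the other called members, only Calr and Creld2 passed 1.5-fold there, both lower.

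When unfolded proteins build up in the ER, the sensors IRE1, ATF6 and PERK start a programme that raises chaperones and degradation factors. ATF6 and XBP1 act through short DNA elements near gene starts. The ER stress response element, ERSE, pairs the letters CCAAT and CCACG at a spacing of 9 bases. ERSE-II joins ATTGG and CCACG with 1 base between them. PERK acts by way of the translation factor eIF2 and the transcription factor ATF4, whose targets often carry a composite element of C/EBP and ATF sites, called CARE here and searched as TGATGNAA.

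Promoters are shown because many members carry the same element and can be set beside their calls. A RefSeq table for GRCm38.p6, the same assembly as mm10, gave the 250 bases before and 50 bases after the start of 26 of the 33 members. The other members were Atf6, Derl1, Hspa13, Hyou1, Manf, Sec61a1 and Tram1. On either strand, ERSE was found in 10 of the 26 members, against 0.119% of all 32851 promoter windows in the table. ERSE-II was found in Herpud1 and Dnajb11, against 0.0365% of all windows. ERSE, ERSE-II and UPRE share the letters CCACG or their complement CGTGG, so their matches can overlap. A match is a description of letters and shows no binding. ERSE was first described in genes of this kind, so its presence in them is no independent finding.

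Matches to ERSE are in capitals in the following stretches, each 5′ to 3′ on the strand of the gene. A match that reads CGTGG first and ATTGG last lies on the opposite strand. All of the genes shown but Canx were called lower in low glucose, in galactose or in both. The other ERSE members, not shown, were Ero1lb, called in no comparison, and Derl3, not tested.

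Hspa5, chr2:34772013-34772055, plus strand: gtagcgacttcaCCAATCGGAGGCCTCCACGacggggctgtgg

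Calr, chr8:84847063-84847105, minus strand: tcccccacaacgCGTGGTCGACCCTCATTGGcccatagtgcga

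Creld2, chr15:88819508-88819550, plus strand: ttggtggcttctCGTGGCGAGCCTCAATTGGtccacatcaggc

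Pdia6, chr12:17266479-17266521, plus strand: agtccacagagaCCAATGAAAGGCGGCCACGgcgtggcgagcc

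Dnajc3, chr14:118937815-118937857, plus strand: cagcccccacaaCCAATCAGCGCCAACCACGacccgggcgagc

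Syvn1, chr19:6046520-6046562, plus strand: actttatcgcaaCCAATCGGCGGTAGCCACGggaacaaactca

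Canx, chr11:50325788-50325830, minus strand: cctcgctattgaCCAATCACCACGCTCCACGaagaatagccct

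Hsp90b1 carried ERSE on each strand, from 212 to 194 and from 107 to 89 bases upstream of its start, and both are in capitals in the longer stretch here.

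Hsp90b1, chr10:86705527-86705662, minus strand: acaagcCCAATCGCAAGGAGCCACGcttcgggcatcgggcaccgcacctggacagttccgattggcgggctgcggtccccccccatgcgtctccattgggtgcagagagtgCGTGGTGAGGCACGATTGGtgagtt

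Herpud1 is shown for contrast, since it rose, while Dnajb11, the other member with ERSE-II, was called lower in galactose. It held ERSE-II from 52 to 42 bases upstream and, on the opposite strand, CARE from 112 to 105 bases upstream, and both are in capitals. It was the only one of the 26 members with a CARE match, a share near the 3.97% of all windows that had one. Ero1l, the member with the largest rise, had a window but no match to ERSE, ERSE-II or CARE. UPRE, searched as TGACGTGG, was in 0.676% of all windows and in no member.

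Herpud1, chr8:94386305-94386399, plus strand: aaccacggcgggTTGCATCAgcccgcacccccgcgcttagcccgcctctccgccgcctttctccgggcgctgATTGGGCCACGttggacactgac

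The 9 tested members with ERSE included 7 called lower in low glucose and 6 in galactose, and none called higher in either, with a median log2 ratio of -0.28 and -0.48. Of all tested loci, 18.2% were called lower and 18.3% higher in low glucose, and 24.8% lower and 26.5% higher in galactose. The 16 members with a window but no ERSE included 5 called lower and 2 higher in low glucose, and 8 lower and 4 higher in galactose, with medians of -0.07 and -0.19. A further 7 members had no window and could not be searched. Of these, 1 was called lower and none higher in low glucose. In galactose 3 of them were called lower and 2, Hyou1 and Derl1, higher. From low glucose to galactose, 4 of the 9 with ERSE were called lower and 1, Hspa5, higher. Of the 16 without ERSE, 4 were called lower and 5 higher there, and of all tested loci 16.0% lower and 17.4% higher. Whether these sets differ was not tested. Sdf2l1, with the largest fall of all members, had no ERSE match, which says only that these letters are not in its window.

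**Figure D1:**
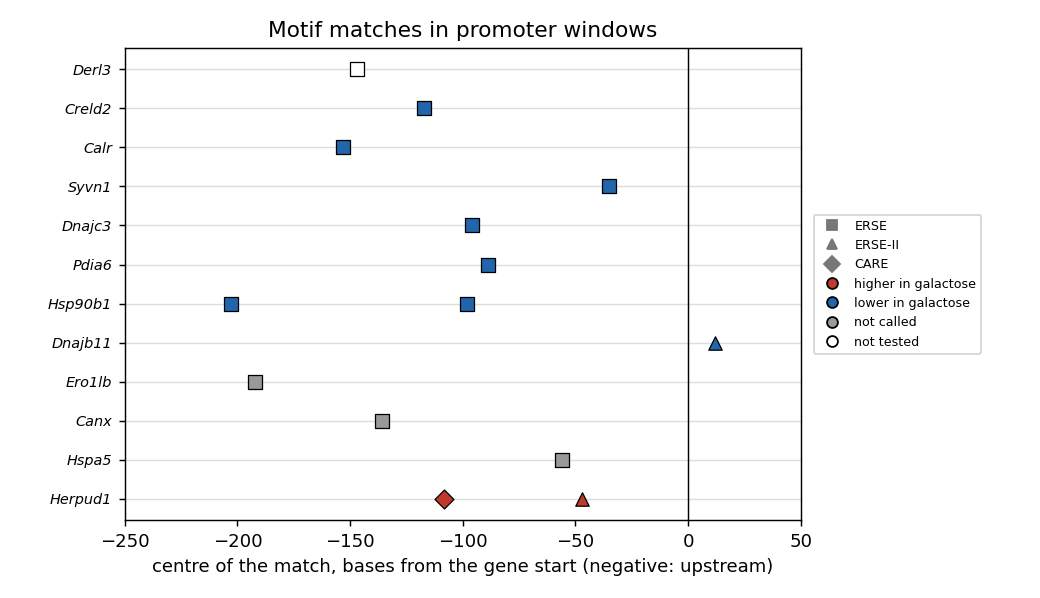
Centre of each motif match (x axis, bases from the RefSeq gene start, negative upstream) for the members with ERSE (squares), ERSE-II (triangles) or CARE (diamond), ordered by their log2 ratio from high glucose to galactose with the lowest at the top; colours give the call in that comparison. Of the genes with ERSE, 6 are called lower and 3 are not called, and Derl3, at the top, was not tested, with at most 0.0719 FPKM. Of those with ERSE-II, Dnajb11 is called lower and Herpud1, which also has CARE, is called higher.

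Chaperones hold unfolded chains and keep them soluble. In high glucose the most abundant was Calr, with 659 FPKM, which encodes calreticulin, a lectin chaperone that binds calcium. Calr stood at 525 FPKM in low glucose and 430.3 in galactose, a fall of 1.26-fold and then of 1.53-fold against high glucose, each with q = 0.000239 in the authors' deposited table. This q is the lowest that the table gives, and it was shared by 9204 of 44006 tests. Canx, the membrane-bound partner of calreticulin in the same cycle, held 139, 141 and 139 FPKM in high glucose, low glucose and galactose and was called in no comparison. The ratio of Canx to Calr was 0.211 in high glucose, 0.269 in low glucose, and 0.324 with galactose.

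Hspa5 encodes BiP, the ER member of the HSP70 family and the chief restraint on the stress sensors. Its level was 364 FPKM in high glucose, 306 in low glucose, and 371 with galactose, so only the low glucose value stood apart. It was called 1.19-fold lower from high to low glucose (q = 0.00105) and 1.22-fold higher from low glucose to galactose (q = 0.000239), and was not called from high glucose to galactose (q = 0.774) in the authors' deposited table. Hsp90b1, the HSP90 of the ER, instead stepped down once, with 331 FPKM in high glucose, 266 in low glucose, and 245 with galactose. It was called 1.25-fold lower in low glucose and 1.35-fold lower in galactose, and its lower value in galactose than in low glucose was not called (q = 0.159 in the authors' deposited table).

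Cofactors of BiP bring it clients and drive its cycle. Sdf2l1, which encodes a small protein that works with the BiP cofactor ERdj3, had 29.3 FPKM in high glucose, 16.7 in low glucose, and 12.7 with galactose. It was lower at each step, by 1.76-fold and then by a further 1.32-fold, and both were called. Its locus lies on chromosome 16 from 17130138 to 17132383 (mm10, minus strand). Dnajc3, a J-domain cofactor of BiP that also restrains eIF2 kinases, fell from 18.1 to 15.6 and 12.7 FPKM, each step called.

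The other J-domain genes had smaller differences. Dnajb11, which encodes ERdj3 itself, had 66.9, 63.8 and 59.4 FPKM in high glucose, low glucose and galactose, and was called 1.13-fold lower in galactose (q = 0.0424 in the authors' deposited table). Dnajb9, which encodes ERdj4, a cofactor that represses IRE1 and also serves degradation, had 6.42, 6.16 and 7.35 FPKM in the same order. It was called 1.19-fold higher from low glucose to galactose (q = 0.0102) and not from high glucose to galactose (q = 0.061) in the authors' deposited table.

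Hyou1 encodes a large HSP70 relative that exchanges the nucleotide of BiP. It had 56.3 FPKM in high glucose, 54.6 in low glucose, and 62.7 with galactose, and was called 1.11-fold higher in galactose (q = 0.0424 in the authors' deposited table). When every group was scaled to the same summed FPKM, its log2 ratio in galactose turned from 0.16 to -0.016. Hspa13, an HSP70-like ATPase gene of the ER, had 15.2, 15.3 and 12.1 FPKM, and was called 1.25-fold lower in galactose. A second locus of that symbol, with the same span and 5.58, 5.82 and 3.55 FPKM, was not called against high glucose (q = 0.0528 in galactose, in the authors' deposited table).

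**Figure D2:**
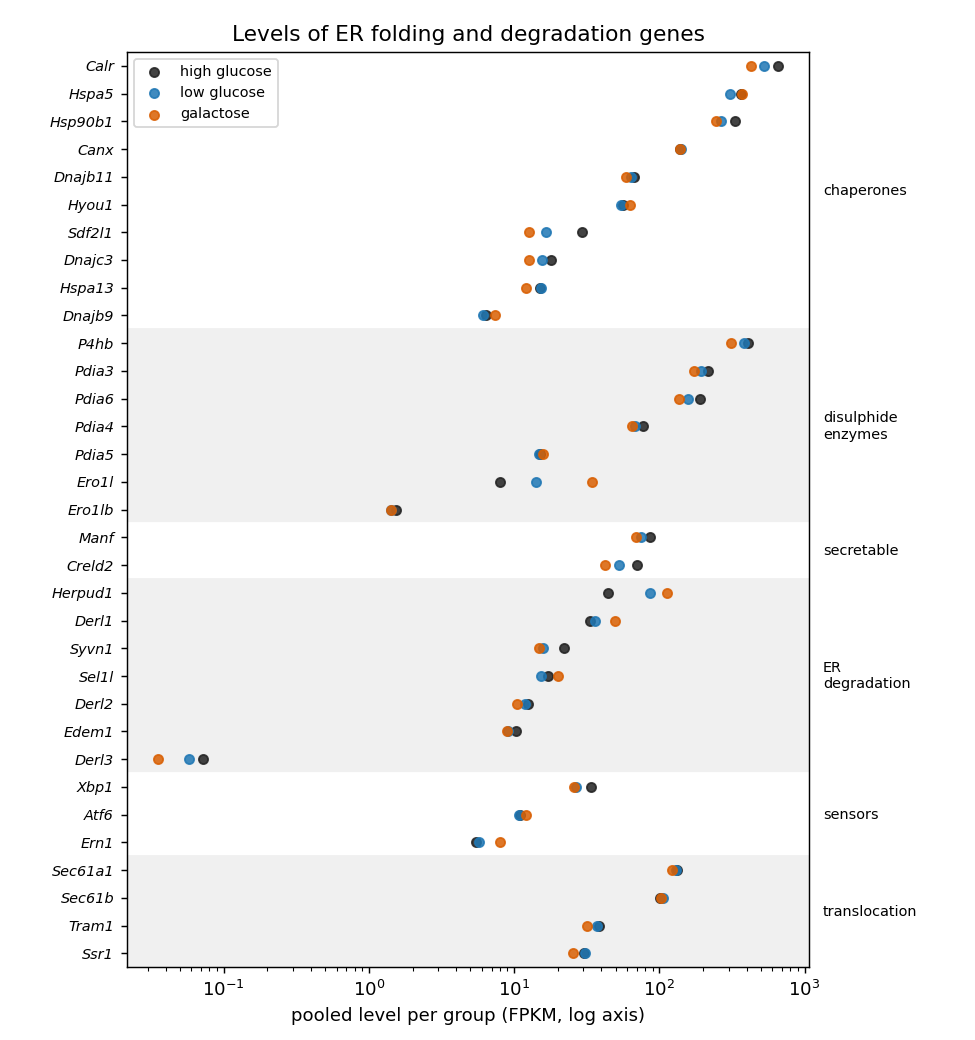
Pooled level of each of the 33 genes in FPKM (x axis, log scale) in high glucose, low glucose and galactose, 1 point per group, ordered by role and by level in high glucose. Levels span from 0.0353 FPKM for Derl3 in galactose to 659 FPKM for Calr in high glucose, and Ero1l, Herpud1 and Sdf2l1 have the widest gaps between groups among tested genes.

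Disulphide bonds are made by the protein disulphide isomerase family, which hands its electrons to the ERO1 oxidases. P4hb, the founding isomerase, had 407 FPKM in high glucose, 385 in low glucose, and 314 with galactose, so its galactose value stood apart. It was not called in low glucose (q = 0.356 in the authors' deposited table) and was called 1.30-fold lower in galactose. Pdia3, the isomerase that works with calnexin and calreticulin, had 216, 194 and 173 FPKM and was called 1.25-fold lower in galactose. Its low glucose value narrowly missed the threshold (q = 0.0505 in the authors' deposited table).

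Pdia6, an isomerase that binds BiP and damps the sensors, fell at both steps, with 191, 157 and 137 FPKM in high glucose, low glucose and galactose. Pdia4, an isomerase with several thioredoxin domains, had 77.8, 68.1 and 64.9 FPKM and was called lower in both media against high glucose, by 1.14-fold and 1.20-fold. Pdia5 was called in no comparison, with 15.0, 15.0 and 15.8 FPKM.

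The oxidases went the other way or not at all. Ero1l, also named Ero1a, had 7.98 FPKM in high glucose, 14.2 in low glucose, and 34.6 with galactose, a rise of 1.78-fold and then of a further 2.44-fold. Both steps were called at the lowest q. Its locus lies on chromosome 14 from 45282955 to 45318572 (mm10, minus strand). Ero1lb, the second ERO1 gene, had 1.53, 1.42 and 1.42 FPKM and was called in no comparison. The ratio of the Ero1l level to that of P4hb was 0.0196 in high glucose, 0.0369 in low glucose, and 0.11 with galactose.

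Manf and Creld2 encode small ER proteins that are retained in resting cells and secreted when ER calcium or folding is disturbed. Creld2 fell at each step, with 70.05 FPKM in high glucose, 53.1 in low glucose, and 42.5 with galactose, and was 1.65-fold lower in galactose than in high glucose. Manf had 85.9, 74.3 and 68.8 FPKM and was called 1.16-fold lower in low glucose (q = 0.0363 in the authors' deposited table) and 1.25-fold lower in galactose. Its value is that of a combined locus with Rbm15b, so the reads of the pair are not told apart. The span also holds Dcaf1, which has an entry of its own under the older symbol Vprbp, and whether reads were shared was not tested.

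ER degradation uses a membrane channel and a ubiquitin ligase, and lectins that pick clients among glycoproteins. The channel is built around the ligase HRD1, encoded by Syvn1, its partner SEL1L, the derlins and HERPUD1. Herpud1 had 44.3 FPKM in high glucose, 85.8 in low glucose, and 113 with galactose, a rise of 1.93-fold and then of a further 1.31-fold, each called at the lowest q. Its locus lies on chromosome 8 from 94386343 to 94396278 (mm10, plus strand). Herpud1 alone made up 31.7% of the summed FPKM of the 7 degradation genes in high glucose, 49.4% in low glucose, and 52.1% with galactose.

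Against high glucose, the ligase and its partner were both called lower in low glucose and went opposite ways in galactose. Syvn1 had 21.9 FPKM in high glucose, 15.9 in low glucose, and 14.9 with galactose, and was called lower in both media, by 1.38-fold and 1.47-fold. Sel1l had 17.2, 15.4 and 19.9 FPKM, so low glucose was the low point and galactose the high one. It was called 1.12-fold lower in low glucose (q = 0.0374), 1.16-fold higher in galactose (q = 0.00447) and 1.30-fold higher from low glucose to galactose (q = 0.000239) in the authors' deposited table. The ratio of Sel1l to Syvn1 was 0.785 in high glucose, 0.968 in low glucose, and 1.34 with galactose. The span of the Syvn1 locus also holds most of Fau and Mrpl49, as that of Hspa5 holds Rabepk, that of Pdia6 Atp6v1c2, that of Dnajb11 Tbccd1 and that of Derl2 Mis12. These genes have entries of their own in the table, and whether reads were shared was not tested.

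The derlins, which thin the membrane at the channel, were also unlike. Derl1 had 33.4, 35.8 and 49.3 FPKM in high glucose, low glucose and galactose, and was called 1.47-fold higher in galactose but not in low glucose (q = 0.236 in the authors' deposited table). Derl2 had 12.5, 11.8 and 10.5 FPKM and missed the threshold in galactose (q = 0.0516 in the authors' deposited table). Edem1, which encodes a mannosidase-like protein that hands misfolded glycoproteins to the channel, had 10.4, 9.09 and 9.01 FPKM. It was called 1.14-fold lower in low glucose (q = 0.0177) and 1.15-fold lower in galactose (q = 0.0111) in the authors' deposited table.

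Among the sensors, Ern1 encodes IRE1, which splices the Xbp1 message, and Atf6 encodes the sensor that is cut in the Golgi to free a transcription factor. Ern1 had 5.45 FPKM in high glucose, 5.71 in low glucose, and 8.05 with galactose, and was called 1.48-fold higher in galactose. Xbp1 went the other way, with 34.1, 26.9 and 25.99 FPKM, and was called 1.27-fold lower in low glucose and 1.31-fold lower in galactose. Values per gene do not tell the spliced from the unspliced Xbp1 message. Atf6 had 11.0, 10.9 and 12.2 FPKM, and was called 1.12-fold higher only from low glucose to galactose (q = 0.0388 in the authors' deposited table).

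New chains enter the ER through the SEC61 channel, helped by the TRAP complex, of which Ssr1 encodes a subunit, and by the membrane protein TRAM1. Sec61a1 had 132, 131 and 123 FPKM in high glucose, low glucose and galactose, and Sec61b had 101, 106 and 103 FPKM. These channel genes were called in no comparison. The accessory genes were at their high glucose level in low glucose and lower in galactose. Ssr1 had 30.2, 30.8 and 25.3 FPKM and Tram1 38.3, 37.5 and 31.8 FPKM, and they were called 1.19-fold and 1.21-fold lower from high glucose to galactose.

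**Figure D3:**
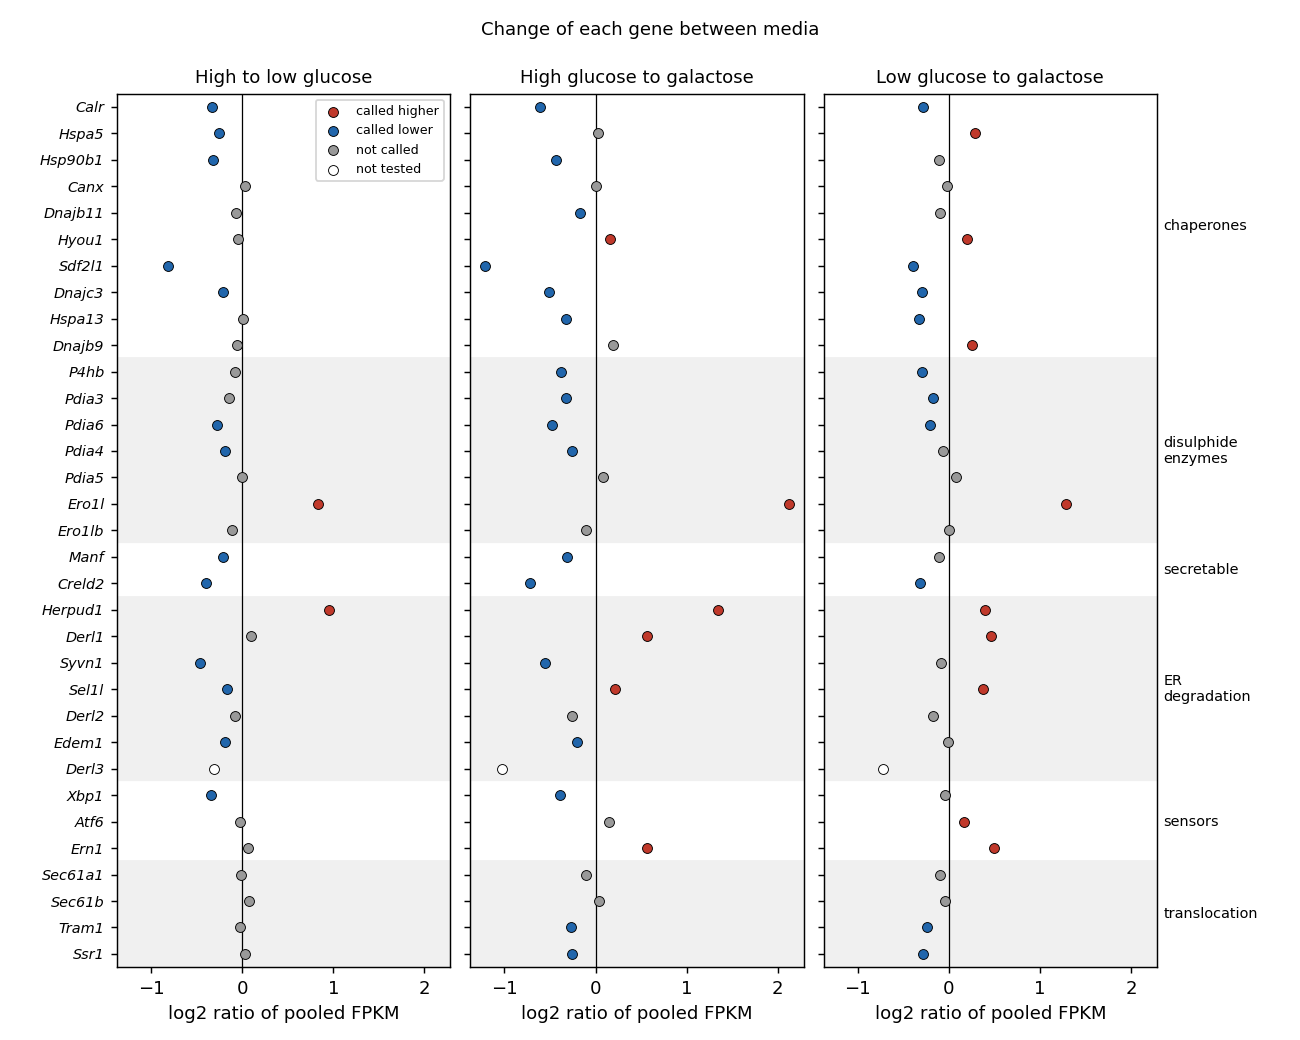
Log2 ratio of the pooled FPKM values (x axis) for each gene in the 3 comparisons, coloured by call, with genes ordered by role and by level. Folding genes lie mostly left of 0 with Ero1l far to the right at 2.12 from high glucose to galactose, while degradation genes lie on both sides, from -0.56 for Syvn1 to 1.35 for Herpud1 among those tested.

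The counts for the 19 listed folding genes are given here beside those for all tested loci. From high to low glucose, 9 of 19 folding genes were called lower and 1 higher, where 18.2% of all tested loci were called lower and 18.3% higher. From high glucose to galactose, 12 of 19 were called lower and 2 higher, where 24.8% of all tested loci were called lower and 26.5% higher. From low glucose to galactose, 8 of 19 were called lower and 4 higher, where 16.0% were called lower and 17.4% higher. The median log2 ratios of the 19 were -0.15, -0.32 and -0.11, where those of all tested loci were 0.0071, 0.0058 and 0.01. The first 2 of these comparisons share the high glucose libraries and the last 2 the galactose libraries, so they are not independent. The genes that rose from low glucose to galactose were Hspa5, Hyou1, Dnajb9 and Ero1l.

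The 6 tested degradation genes did not share a direction. From high to low glucose 3 were called lower (Syvn1, Sel1l and Edem1) and 1 higher (Herpud1), and from high glucose to galactose 2 were called lower (Syvn1 and Edem1) and 3 higher (Herpud1, Derl1 and Sel1l). From low glucose to galactose 3 were called higher, the same Herpud1, Derl1 and Sel1l, and none lower; Derl2, Syvn1 and Edem1 lay below 0 there, at log2 ratios of -0.17, -0.09 and -0.01. Of all tested loci, 18.2%, 24.8% and 16.0% were called lower in these comparisons, and 18.3%, 26.5% and 17.4% higher. The medians of the 6 genes were -0.12, 0.0041 and 0.18, where those of all tested loci were 0.0071, 0.0058 and 0.01. With so few genes 1 member decides the median: without Herpud1 it was -0.16, -0.20 and -0.012. The difference between folding and degradation genes was not tested.

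Most members are abundant genes, and abundant loci were called higher more often and lower less often than all tested loci. Among loci of at least 10 FPKM in either group, 20.9% were called lower and 35.4% higher from high glucose to galactose, against 17 and 5 of the 29 members at that level. From high to low glucose these shares were 14.4% and 25.3%, against 13 and 2 of 29 members. By count alone, members at that level had a larger share of falls and a smaller share of rises in both comparisons. From low glucose to galactose 14.6% of such loci were called lower and 20.1% higher, against 10 and 7 of 28 members. By count, the share of falls was larger among members there, and that of rises lay near the share of such loci. Whether the shares differ was not tested.

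**Figure D4:**
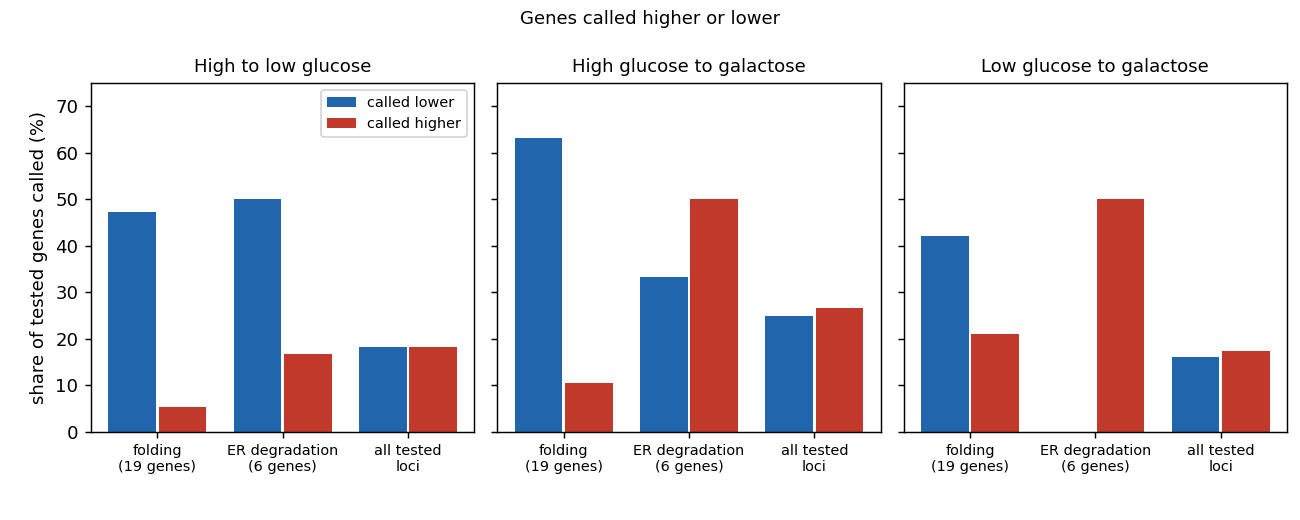
Share of tested genes called lower or higher (y axis, percent, bars from 0) among 19 folding genes, 6 degradation genes and all tested loci in each comparison. From high glucose to galactose 12 of 19 folding genes are called lower, while 24.8% of all loci are.

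Summed over the 19 folding genes, the level was 2756 FPKM in high glucose, 2373 in low glucose, and 2205 with galactose. The sum over the 7 degradation genes rose instead, from 140 to 174 and 216 FPKM, and without Herpud1 it was 95.5, 88.0 and 104 FPKM. The ratio of the sums was 19.7, 13.6 and 10.2, and 28.9, 26.9 and 21.3 without Herpud1. Over all loci the summed FPKM was itself 548145, 582498 and 617537. Scaling every group to 1 sum therefore lowers each log2 ratio from high glucose to galactose by 0.172, which makes the falls larger and the rises smaller. On that scale the folding median was -0.49 and the degradation median -0.17.

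Across the 3 media, 11 of 32 tested members were called lower in both low glucose and galactose against high glucose, as were 13.8% of the 14243 loci tested in all comparisons. These were Hsp90b1, Calr, Sdf2l1, Dnajc3, Pdia4, Pdia6, Manf, Creld2, Xbp1, Edem1 and Syvn1. A further 6 were called lower in galactose and not called in low glucose, as were 10.5% of those loci, namely Pdia3, P4hb, Dnajb11, Hspa13, Ssr1 and Tram1. Herpud1 and Ero1l were called higher in both, as were 15.3% of those loci. Hyou1, Ern1 and Derl1 were called higher in galactose and not called in low glucose, as were 11.1%. Both comparisons share the high glucose libraries. Hspa5 was lower in low glucose and not called in galactose, and Sel1l was called lower in low glucose and higher in galactose. The low glucose value lay between the other values for 21 of 32 tested members (65.6%), and for 56.6% of those loci.

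Other genes of the pathway were counted from lists of symbols, and are to be read against the 24.8% of all tested loci called lower and the 26.5% called higher from high glucose to galactose. Of 34 other folding genes tested, 8 fell and 7 rose from high glucose to galactose, among them Rcn3, a calcium-binding protein gene of the ER, with 87.8 and 30.7 FPKM, and Fkbp11, a prolyl isomerase gene, with 34.4 and 52.6 FPKM. Of 29 other degradation genes, 5 fell and 7 rose, among them Edem2, a relative of Edem1, with 14.8 and 10.3 FPKM, and Ube2j2, a ubiquitin-conjugating enzyme gene, with 81.5 and 130.4 FPKM. Of 32 other genes of translocation, signal peptidase and oligosaccharyltransferase, 7 fell and 9 rose. The counts of these lists were near the shares of all loci.

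Of 17 tested genes of the PERK branch, other ER stress factors and site proteases, 9 rose and 6 fell from high glucose to galactose. Trib3, a pseudokinase gene downstream of ATF4, had 5.58 FPKM in high glucose, 48.98 in low glucose, and 118 with galactose. Eif2ak3, which encodes the sensor PERK, fell, with 6.76, 5.53 and 4.04 FPKM. From high to low glucose, where 18.2% of all tested loci were called lower and 18.3% higher, the 4 lists gave 4 rises and 3 falls (other folding), 4 and 5 (other degradation), 8 and 5 (PERK branch) and 3 and 2 (other translocation).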

How the data were processed

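PolyA RNA of C2C12 cells was sequenced in 12 libraries (NEBNext Ultra kit, per the labels). The submitters' processing notes name mouse build mm10, the aligner TopHat2 (2.0.10), Cufflinks (2.2.0) and, with no version, Cuffdiff; settings, strand use and normalization between libraries are not given in the sources used here. The authors' deposited table holds 1 pooled FPKM value per group, the log2 ratio of the values without a pseudocount, a test score (not used here), a p-value and a q-value. Recomputing showed that the authors adjusted the deposited q-value by Benjamini-Hochberg across the 3 comparisons together (44006 tests that ran). The lowest deposited p-value is 5e-05. A pooled value averages over libraries, so 1 outlying library cannot be seen.

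Computed here were folds of FPKM values, counts of calls and medians. Where several loci held a symbol, the one with the highest summed FPKM was used; file starts were raised by 1. Spans of other coding genes came from GENCODE M21. Motifs were searched as letters on both strands, which was tested on simulated data. All 33 members are named; of each list of other pathway genes (137 symbols in 5 lists, 136 found), the called gene of at least 5 FPKM with the largest rise and fall in galactose may be. Members and lists were chosen with earlier results of these data known. Alternatives were q below 0.01, an absolute log2 ratio of at least 1, a minimum of 1 FPKM, adjustment within each comparison, re-centring, a pseudocount of 1 FPKM, leaving out combined loci and counting Dnajb9 and Sdf2l1 as degradation genes. Rescaling to 1 sum, and leaving out Herpud1, Ero1l or members whose locus span holds at least 50% of another coding gene, were added after the data were seen. Python 3.11.15, pandas 2.3.3, numpy 2.4.6 and matplotlib 3.10.9 were used.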

Additional observations from a re-analysis of the deposited data

How the results depend on the processing

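No paired analysis was possible because the table holds 1 pooled value per group, and for the same reason no library could be left out. A median counted as moved where it changed by more than 0.1 on the log2 scale, and a count by more than 1.5 times. Counts of folding genes called lower and degradation genes called higher kept to these limits at q below 0.01 and with adjustment within each comparison, and their medians with a pseudocount of 1 FPKM. Both counts and medians did at a minimum of 1 FPKM, re-centred on all tested loci, without combined loci, and with Dnajb9 and Sdf2l1 counted as degradation genes. The folding medians did without Ero1l.

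With an absolute log2 ratio of at least 1 required, folding genes called lower numbered 1 from high glucose to galactose and 0 in both comparisons with low glucose, and degradation genes called higher likewise numbered 1 and 0. Rescaled to the same summed FPKM, the medians from high glucose to galactose were -0.49 for folding and -0.17 for degradation genes, and Hyou1 reversed to -0.016 in that comparison. Without Herpud1, the degradation median was -0.20 from high glucose to galactose, and between low glucose and galactose it reversed to -0.012. Without members whose locus span holds most of another coding gene (Syvn1 and Derl2 among those tested), it was 0.39 and 0.38. Among folding genes this setting left out Hspa5, Pdia6, Dnajb11 and Manf. Folding genes called lower then numbered 6 instead of 9 from high to low glucose, and 9 instead of 12 from high glucose to galactose. From low glucose to galactose they numbered 7 instead of 8. At q below 0.01, 10 calls of single members were lost, and adjustment within each comparison added 2.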

Other observations

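The listed chaperones of the cytosol were mostly higher in galactose. In both media the rises included every listed subunit of a single complex, the TRiC folding chamber. The genes outside that complex were not counted apart. Of 22 tested genes, 16 rose and 2 fell from high glucose to galactose and 12 rose and 3 fell from high to low glucose, with median log2 ratios of 0.30 and 0.17. Among tested loci of at least 10 FPKM, the share called higher was 35.4% in galactose and 25.3% in low glucose, and the share called lower 20.9% and 14.4%. The 22 genes were not held to that minimum, and Hspa1a and Dnaja1 lay below it in every group. Cct4, a subunit of the TRiC folding chamber, had 145 FPKM in high glucose, 195 in low glucose, and 234 with galactose. Hspa1b, a stress-inducible HSP70 gene, went the other way, with 25.2, 15.6 and 9.81 FPKM. The difference from the ER genes was not tested.

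Outside the members, ERSE lay in a promoter window of 27 genes, of which 15 were found in the table and 6 were tested. Of these, 3 were called lower and 1 higher from high to low glucose, and 3 lower and 2 higher from high glucose to galactose. Of the 6 tested genes with ERSE-II that are no members, 1 was called lower and 3 higher in low glucose, and 4 higher and none lower in galactose. Krtcap2, 1 of these genes, also counts in the list of translocation, signal peptidase and oligosaccharyltransferase genes. Of all tested loci, 18.2% were called lower and 18.3% higher in low glucose, and 24.8% lower and 26.5% higher in galactose. With so few genes, no difference from these shares was tested.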
